A study of Mus musculus with 11 samples.

Results

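Cholesterol is the precursor of every steroid hormone, and a Leydig cell can make it from acetyl-CoA, take it up from lipoproteins, release it from stored esters, or pass it out again. The 33 genes examined here cover these routes. They comprise 17 enzymes of synthesis from acetyl-CoA to cholesterol, 5 genes of uptake and release, 5 genes of sterol sensing, 4 genes of the liver X receptors (LXRs) and efflux, and 2 oxysterol-binding proteins. The genes were listed by their roles, with earlier results of these data known, and every probe of a listed gene was taken. A probe was matched by its accession for 32 of the 33 genes, out of 17016 genes so matched on the array, with 46 probes in all. *Idi1*, an isopentenyl diphosphate isomerase, was not matched to a probe here. Of the 32 genes, 31 had a brightest probe that could be tested, out of 11814 genes tested. The probe of *Abcg1*, a cholesterol exporter of the ABC family, was well above background on 0 of the 11 arrays, and no difference is given for it.

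The study silenced *Mamld1*, a gene involved in testicular androgen production, in MLTCs, a line of mouse Leydig tumor cells in culture. The cells received either non-targeting RNA (4611G, 4 arrays, control), siRNA1 (4 arrays), or siRNA2 (3 arrays), each at 20 nM, and RNA was taken after 48 h. All groups share the transfection reagent and the serum-containing medium, and the study's methods place the harvest after a brief stimulation of all cells with hCG, which the labels do not name. All arrays come from 1 cell line, and the labels do not say whether replicates were separate cultures, so the p-values measure the spread between these samples, which may be technical.

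The rate of cholesterol synthesis is set by feedback. When membrane sterol is low, the escort protein SCAP carries the SREBP transcription factors to the Golgi, where they are released to enter the nucleus and switch on synthesis and uptake genes, and INSIG proteins hold the complex back when sterol is high. LXRs respond to oxysterols and switch on efflux genes such as *Abca1*.

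The 75th percentile of signal on the 11 arrays ranged from 469.7 to 773.8 fluorescence units, and between 58.6% and 62.6% of the spots were well above background. The arrays lie on 3 slides, each of which holds all 3 groups. *Mamld1* itself stood at 88.0%, 85.2%, 119%, and 112% of the control mean on the control arrays, at 46.6%, 77.0%, 48.1%, and 44.1% with siRNA1, and at 45.3%, 68.6%, and 65.5% with siRNA2. Its log2 difference from control was -0.93 ± 0.20 (SE) with siRNA1 (limma, adjusted p = 0.0057) and -0.77 ± 0.22 with siRNA2 (adjusted p = 0.0309), and the second call was lost when control replicate 3, control replicate 4, siRNA2 replicate 1, or siRNA2 replicate 3 was left out (adjusted p = 0.0791, 0.0746, 0.117, and 0.0501). With normexp background correction the *Mamld1* differences turned to 0.65 and 0.44 (adjusted p = 0.491 and 0.75). All 7 Leydig cell markers were well above background on every array, and among them *Cyp17a1* was lower with both siRNAs (-0.92 and -0.48, adjusted p = 0.000216 and 0.0237) and *Lhcgr* with siRNA1 (-0.63, adjusted p = 0.00285). *Insl3* with siRNA2 and *Hsd3b1* with siRNA1 did not pass (0.82 and -0.25, limma, adjusted p = 0.0613 and 0.0654). With the slide as a block in the fit, both did (0.72 and -0.27, adjusted p = 0.00865 and 0.0203). Of the 5 Sertoli cell markers, *Amh* and *Gata1* were well above background on all 11 arrays, *Fshr* on 3, and *Sox9* and *Wt1* on 0, and of the 4 macrophage markers with a probe, *Csf1r* on 6 and *Adgre1*, *Ptprc*, and *Mrc1* on 0. The germ cell markers *Sycp3*, *Ddx4*, and *Dazl* were well above background on 11, 8, and 1 arrays, and *Ddx4*, so on 1 of the 4 siRNA1 arrays, differed by -1.72 with siRNA1 (adjusted p = 0.000197). Of the 3 myoid and muscle markers, *Acta2* and *Des* were so on 11 arrays and *Myh11* on 9, and *Des* was lower with siRNA1 (-0.72, adjusted p = 0.00114). Among 3 endothelial markers, *Cdh5* rose with both siRNAs, by 1.22 and 0.84 on the log2 scale (adjusted p = 2.14e-05 and 0.000652), while *Tek* was well above background on 0 arrays and *Pecam1* on 2, and the summed unscaled signal of the list ran between 315.5 and 393.5 in control, between 761.5 and 1357 under siRNA1, and between 551.8 and 771.0 under siRNA2. For control, siRNA1, and siRNA2 in turn, the summed unscaled signal was 169970 to 265245, 203217 to 261145, and 224557 to 234925 for the Leydig list. For the Sertoli list it was 823.4 to 1110, 1277 to 1586, and 1079 to 1231. It was 15.1 to 18.3, 14.7 to 23.4, and 12.4 to 15.5 for the macrophage list and 32.7 to 50.9, 36.1 to 47.4, and 29.8 to 53.2 for the germ cell list. For the muscle list it was 6571 to 8171, 6978 to 10381, and 6770 to 10073. These ranges overlapped between the groups for the Leydig, macrophage, germ cell, and muscle lists. For the Sertoli list siRNA1 lay above the other groups, and for the endothelial list both knockdown groups lay above control. The sums are not scaled for array brightness, and the 75th percentile was 600.7 to 773.8 with siRNA1 and 469.7 to 581.7 in control. On the scaled signal *Gata1* and *Amh* did not pass with siRNA1 (0.22 and -0.31, limma, adjusted p = 0.0899 and 0.266). The part of these marker shifts in the results below was not tested.

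Transcripts of 11 of the 16 tested synthesis enzymes were lower with siRNA1 and of 11 with siRNA2, whereas those of uptake, release, sterol sensing, and oxysterol binding mostly did not pass the test. In siRNA1-transfected MLTCs, 12 of the 31 member genes were lower and 1 was higher than in non-targeted MLTCs at an adjusted p of 0.05 or less, and the lower gene outside the synthesis enzymes was *Srebf1*. Of all genes tested in that comparison, 18.7% were lower and 10.6% were higher. In siRNA2-transfected MLTCs, 11 member genes were lower, all of them synthesis enzymes, and 0 were higher by limma (1 at an unadjusted p of 0.05, and 0 by the unmoderated test of the study's methods, adjusted), against 12.2% and 8.02% of all genes. The 31 genes had a median log2 difference of -0.29 with siRNA1 and -0.28 with siRNA2, beside -0.08 and -0.02 over all genes tested. Because both comparisons use the same 4 control arrays, they are not independent of each other. In RNA of whole cultures, fewer cells of a kind and less RNA per cell cannot be told apart.

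None of the member genes that passed against control changed by 2-fold or more. With the slide as a block, 14 member genes were lower and 2 higher with siRNA1, and 14 were lower and 1 higher with siRNA2. The share of all genes called under this block was not counted, so whether the added calls are particular to the members was not tested. When siRNA2 replicate 2 was left out, which makes that group smaller, 6 of the 11 genes passed. *Mvk*, *Mvd*, *Fdft1*, *Sqle*, and *Ebp* no longer did, with log2 differences of -0.40, -0.63, -0.35, -0.36, and -0.46. With all arrays these were -0.43, -0.67, -0.35, -0.41, and -0.48. Leaving out siRNA2 replicate 1 ended the calls on *Mvk*, *Mvd*, *Fdft1*, and *Ebp*.

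**Figure D1:**
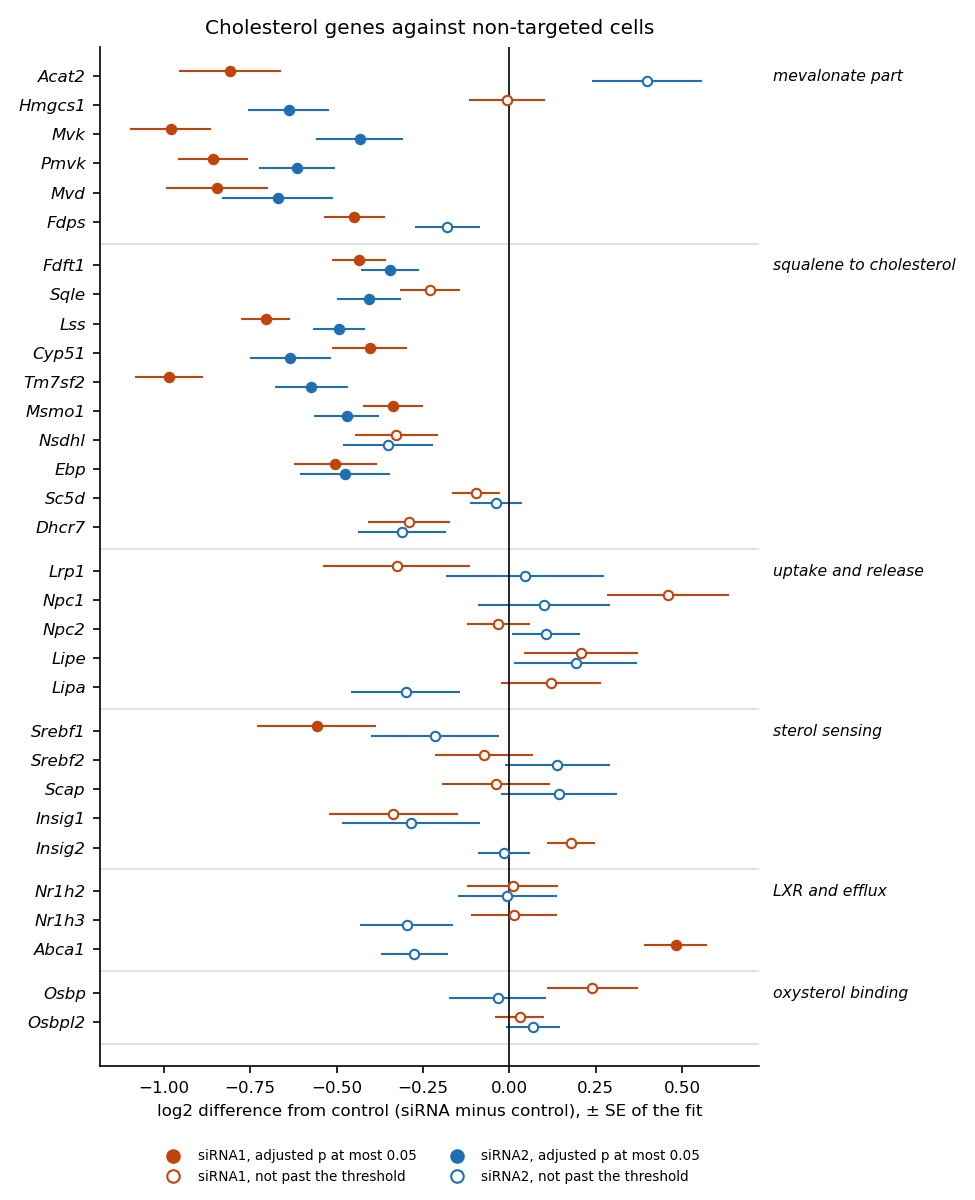
The log2 difference of each of the 31 tested member genes from control (horizontal axis, siRNA minus control, with the SE of the fit) is shown for siRNA1 in orange and siRNA2 in blue, grouped by role, with filled points for an adjusted p of 0.05 or less. Filled points lie almost entirely among the enzymes of synthesis, to the left of 0, and *Abca1* is the single filled point to the right.

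The median of the 16 synthesis enzymes lay below control on each knockdown array. This median, expressed as a share of each gene's own control mean, was 72.5%, 75.5%, 69.4%, and 73.0% on the 4 siRNA1 arrays and 73.0%, 70.8%, and 79.0% on the 3 siRNA2 arrays. On the control arrays the same median was 103%, 97.1%, 98.7%, and 105%, so the groups did not overlap. At least 15 of the 16 enzymes were below their control mean on every knockdown array. The 15 other members tested had a median log2 deviation between -0.02 and 0.12 for siRNA1 and between -0.10 and 0.14 for siRNA2, a median over genes that moved both ways, such as *Abca1* and *Srebf1*.

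By role, 5 of the 6 tested enzymes of the mevalonate part were lower with siRNA1 and 4 of 6 with siRNA2. Of the 10 enzymes from squalene formation to cholesterol, 6 were lower with siRNA1 and 7 with siRNA2. The 16 enzymes had a median log2 difference of -0.44 with siRNA1 and -0.45 with siRNA2. The arrays of the compared groups did not overlap for 11 of the 16 enzymes with siRNA1 and for 12 with siRNA2, whereas 31.8% and 31.1% of all genes did not overlap in those comparisons. All 11 lay below control with siRNA1, while with siRNA2 11 lay below and 1, *Acat2*, above.

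The regulatory stretches before the start sites of 6 genes are shown because these genes were lower with both siRNAs (*Tm7sf2*, *Lss*, *Mvk*) or carried the differences between the siRNAs (*Hmgcs1*, *Acat2*, *Abca1*) described below. Each run holds the 250 bases upstream of the start from RefSeq (GRCm38.p6), reads 5′ to 3′ in the direction of the gene, and has in capitals the core of the sterol response element bound by SREBPs (CACCCCAC), the CCAAT box, and the Sp1 box (GGGCGG), on either strand.
Tm7sf2, chr19:6067851-6068100, minus strand: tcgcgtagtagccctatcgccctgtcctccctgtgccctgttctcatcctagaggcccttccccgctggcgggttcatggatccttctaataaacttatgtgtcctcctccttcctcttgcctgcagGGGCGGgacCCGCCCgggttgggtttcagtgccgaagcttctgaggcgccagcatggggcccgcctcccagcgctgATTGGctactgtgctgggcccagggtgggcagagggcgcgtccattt
Lss, chr10:76531355-76531604, plus strand: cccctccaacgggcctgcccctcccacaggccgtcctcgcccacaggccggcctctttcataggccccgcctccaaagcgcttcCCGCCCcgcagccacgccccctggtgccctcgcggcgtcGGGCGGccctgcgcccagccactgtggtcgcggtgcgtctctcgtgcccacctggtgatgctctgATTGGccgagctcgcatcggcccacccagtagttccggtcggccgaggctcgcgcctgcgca
Mvk, chr5:114444019-114444268, plus strand: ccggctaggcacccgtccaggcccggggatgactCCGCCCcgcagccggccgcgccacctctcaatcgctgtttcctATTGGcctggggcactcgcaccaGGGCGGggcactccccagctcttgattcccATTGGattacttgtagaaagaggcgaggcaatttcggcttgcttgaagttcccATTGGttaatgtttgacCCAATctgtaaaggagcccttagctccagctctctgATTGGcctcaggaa
Hmgcs1, chr13:119690101-119690350, plus strand: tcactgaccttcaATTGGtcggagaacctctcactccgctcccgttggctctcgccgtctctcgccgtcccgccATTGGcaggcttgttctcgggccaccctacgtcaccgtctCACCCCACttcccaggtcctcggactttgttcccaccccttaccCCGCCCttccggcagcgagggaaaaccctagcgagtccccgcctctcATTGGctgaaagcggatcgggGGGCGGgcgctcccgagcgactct
Acat2, chr17:12960726-12960975, minus strand: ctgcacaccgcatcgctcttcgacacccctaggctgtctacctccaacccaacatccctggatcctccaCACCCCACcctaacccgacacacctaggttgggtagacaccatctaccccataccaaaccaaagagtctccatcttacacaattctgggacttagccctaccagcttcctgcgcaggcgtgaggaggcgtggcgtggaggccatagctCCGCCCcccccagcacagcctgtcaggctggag
Abca1, chr4:53159896-53160145, minus strand: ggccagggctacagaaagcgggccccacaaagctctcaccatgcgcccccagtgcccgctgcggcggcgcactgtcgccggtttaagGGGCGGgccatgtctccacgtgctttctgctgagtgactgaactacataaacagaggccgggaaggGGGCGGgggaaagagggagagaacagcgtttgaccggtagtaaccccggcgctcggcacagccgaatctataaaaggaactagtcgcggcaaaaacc

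SREBPs are known to act together with the factors that bind the CCAAT and Sp1 boxes. A window of 250 bases before to 50 bases after the start was found for 28 of the 33 genes, with 38 windows in all, and *Fdps*, *Fdft1*, *Sqle*, *Npc1*, and *Abcg1* had none in the table. The CCAAT box (CCAAT, both strands) was in a window of 13 of the 14 synthesis genes that had one, and in 13 of their 17 windows, beside 37.4% of 32851 windows of all genes. The Sp1 box was in 14 of the 17 windows, beside 35.7%. Over all 38 member windows, the CCAAT box was in 22 and the Sp1 box in 29. The sterol response element was searched as TCACCCCAC, which is 1 letter short of the classical form. This string was in 1 of the 17 windows, that of *Hmgcs1*, with its first base 137 bases before the start, beside 0.551% of all windows. The core CACCCCAC, which lies within that string, was also in the window of *Acat2*, 181 bases before the start, beside 2.87% of all windows. Among the other motifs searched on both strands, the E-box (CACGTG) was in 7 of the 38 member windows, beside 7.15% of all, the NR5A1 type site (CAAGGTCA) in 2, beside 1.56%, and the cAMP response element (TGACGTCA) in 0, beside 1.79%. Looser forms of these sites were not searched.

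Among the enzymes of the mevalonate part, *Acat2* and *Hmgcs1*, which make acetoacetyl-CoA and HMG-CoA, differed between the siRNAs. *Acat2* stood at 107%, 101%, 81.3%, and 113% of the control mean on the control arrays, at 71.7%, 61.4%, 46.7%, and 51.7% with siRNA1, and at 146%, 120%, and 131% with siRNA2. All siRNA1 arrays lay below and all siRNA2 arrays above the control arrays. The log2 difference from control was -0.81 ± 0.15 with siRNA1 (adjusted p = 0.0021) and 0.40 ± 0.16 with siRNA2, which did not pass (adjusted p = 0.112) unless the slide was a block (0.44, adjusted p = 0.0362). Between the siRNAs, the log2 difference of *Acat2* was -1.21 ± 0.16 (adjusted p = 0.00029), more than 2-fold lower with siRNA1, and it was negative on each slide (-1.02, -1.16, and -1.34).

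*Hmgcs1* showed the reverse order. It stood at 88.8%, 115%, 106%, and 92.4% on the control arrays, at 86.8%, 103%, 104%, and 106% with siRNA1, and at 68.4%, 67.2%, and 57.6% with siRNA2. The siRNA1 arrays lay within the range of control but for the lowest, and the siRNA2 arrays lay below both other groups. Its log2 difference was -0.64 ± 0.12 with siRNA2 (adjusted p = 0.00324), against -0.01 ± 0.11 with siRNA1 (adjusted p = 0.972). The difference between the siRNAs was 0.63 ± 0.12 (adjusted p = 0.00265), and it had the same sign on each slide (0.34, 0.62, and 0.88). The second *Hmgcs1* probe gave -0.72 ± 0.28 with siRNA2 and 0.70 ± 0.28 between the siRNAs, and neither passed (adjusted p = 0.109 and 0.0989) unless the slide was a block (-0.63 and 0.67, adjusted p = 0.0228 and 0.0143).

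The 3 enzymes that carry mevalonate to isopentenyl diphosphate were lower with both siRNAs. *Mvk*, mevalonate kinase, stood at 111%, 80.0%, 103%, and 109% on the control arrays, at 47.6%, 53.6%, 46.6%, and 55.6% with siRNA1, and at 70.7%, 70.9%, and 81.2% with siRNA2. The siRNA1 arrays lay apart from both other groups, and the highest siRNA2 array overlapped the lowest control array. The log2 difference was -0.98 ± 0.12 with siRNA1 (adjusted p = 0.000134) and -0.43 ± 0.13 with siRNA2 (adjusted p = 0.0347), the latter lost when control replicate 1, 3, or 4 or siRNA2 replicate 1 or 2 was left out (adjusted p between 0.078 and 0.119). The difference between the siRNAs (-0.55 ± 0.13, adjusted p = 0.00887) was not seen by the second *Mvk* probe, which gave -0.49 ± 0.12 with siRNA1, -0.43 ± 0.13 with siRNA2, and -0.06 ± 0.13 between them (adjusted p = 0.776).

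*Pmvk*, phosphomevalonate kinase, stood at 100%, 101%, 88.9%, and 111% on the control arrays, at 54.5%, 57.1%, 48.4%, and 61.7% with siRNA1, and at 66.2%, 59.9%, and 70.4% with siRNA2. Both knockdown groups lay below control, by -0.86 ± 0.10 (adjusted p = 0.000131) and -0.61 ± 0.11 (adjusted p = 0.00266) on the log2 scale. Its second probe gave -0.89 and -0.65. *Mvd*, mevalonate diphosphate decarboxylase, stood at 101%, 82.4%, 96.2%, and 125% on the control arrays, at 54.6%, 52.8%, 50.1%, and 66.4% with siRNA1, and at 55.0%, 59.3%, and 76.2% with siRNA2. Neither knockdown group overlapped control, and the log2 differences were -0.85 ± 0.15 (adjusted p = 0.0017) and -0.67 ± 0.16 (adjusted p = 0.0137). The *Mvd* call with siRNA2 was lost without siRNA2 replicate 1 or 2 (adjusted p = 0.0566 and 0.0572). For *Pmvk* and *Mvd* no difference between the siRNAs passed the test.

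*Fdps*, farnesyl diphosphate synthase, was lower with siRNA1, at 73.5% ± 6.9 of the control mean (SD, n = 4; log2 difference -0.45 ± 0.09, adjusted p = 0.00337 by limma). The individual arrays stood at 110%, 100%, 96.1%, and 94.6% in control, at 73.3%, 83.3%, 69.5%, and 68.0% with siRNA1, and at 87.1%, 93.3%, and 84.8% with siRNA2. The siRNA2 arrays all lay below the lowest control array, though narrowly, and the difference of -0.18 ± 0.10 did not pass (adjusted p = 0.241).

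**Figure D2:**
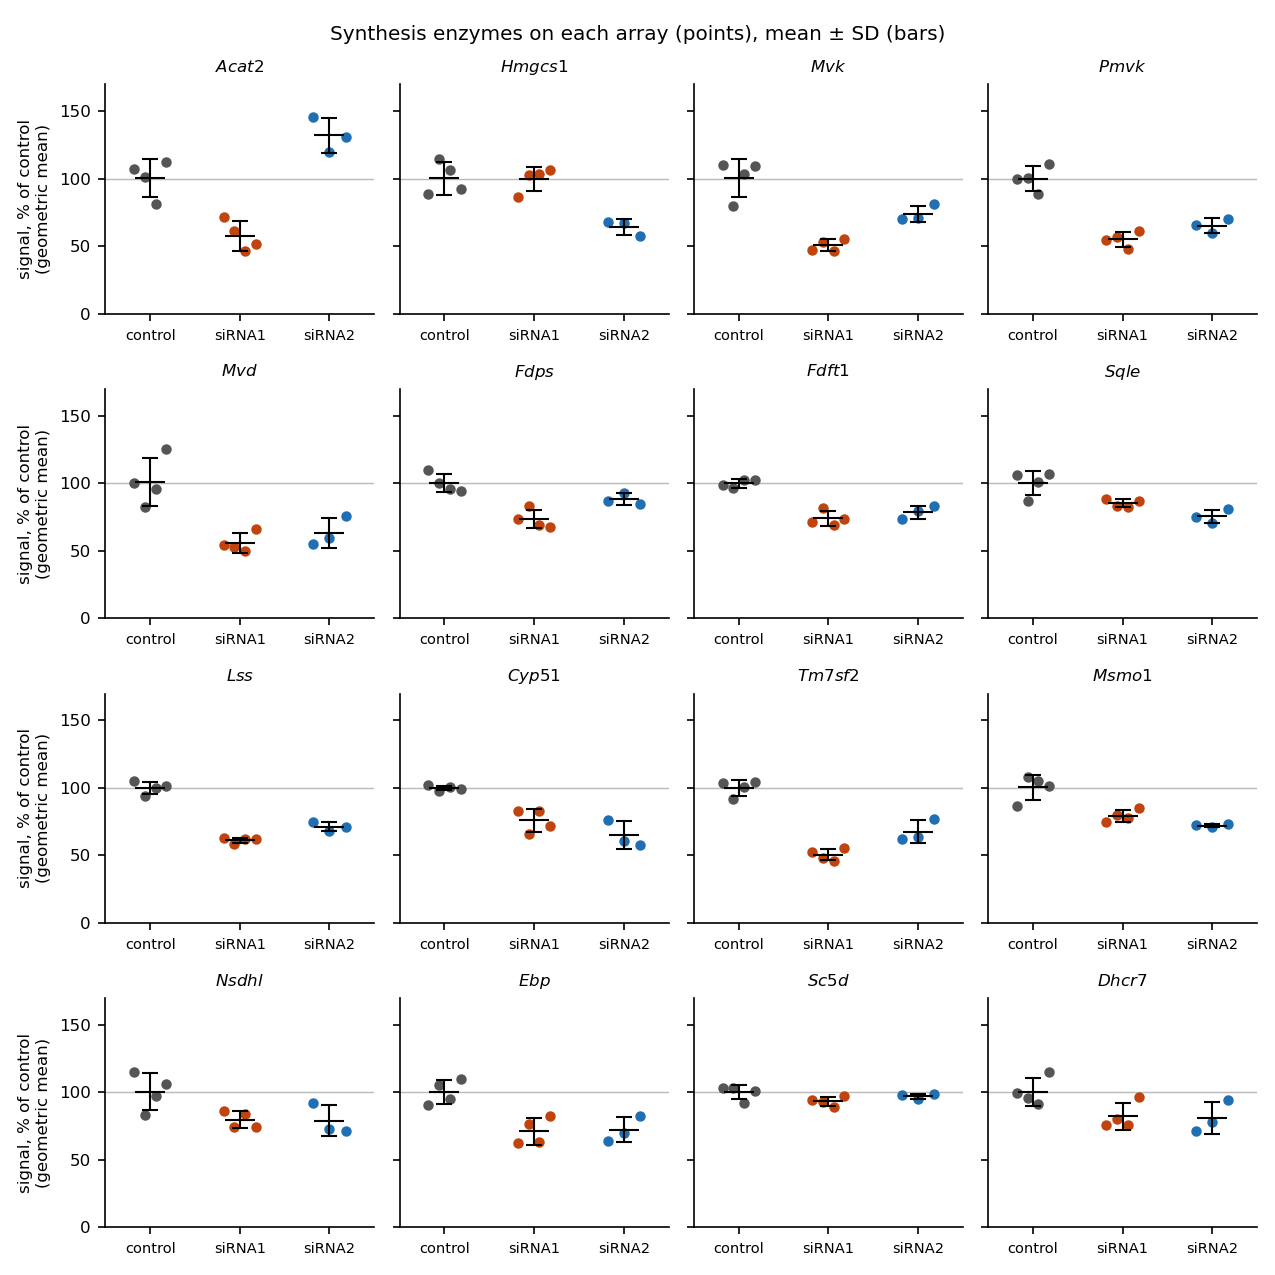
Each panel is 1 of the 16 synthesis enzymes, with the signal of its brightest probe as a percent of the control geometric mean on the vertical axis, and points for the 4 control, 4 siRNA1, and 3 siRNA2 arrays with the mean and SD. Most enzymes stand lower in both knockdown groups, *Acat2* is low with siRNA1 and high with siRNA2, *Hmgcs1* is low with siRNA2, and *Sc5d* stays near 100% in all groups.

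Of the 3 steps from farnesyl diphosphate to lanosterol, *Fdft1* and *Lss* were lower with both siRNAs and *Sqle* with siRNA2. *Fdft1*, squalene synthase, stood at 98.7%, 96.4%, 102%, and 103% on the control arrays, at 71.8%, 81.6%, 69.2%, and 73.9% with siRNA1, and at 73.7%, 79.5%, and 83.2% with siRNA2. Both knockdown groups lay below every control array, with log2 differences of -0.43 ± 0.08 (adjusted p = 0.00193) and -0.35 ± 0.08 (adjusted p = 0.0149). Without siRNA2 replicate 1 or 2 the second call was lost (adjusted p = 0.0593 and 0.0502), and the second *Fdft1* probe passed in neither comparison (-0.20 and -0.14). *Sqle*, squalene epoxidase, stood at 106%, 87.2%, 101%, and 107% on the control arrays, at 88.7%, 83.6%, 82.3%, and 86.7% with siRNA1, and at 75.2%, 70.8%, and 80.8% with siRNA2. It was lower with siRNA2 (-0.41 ± 0.09, adjusted p = 0.0108), whereas the siRNA1 arrays overlapped control (-0.23 ± 0.09, adjusted p = 0.0714). The *Sqle* call was lost without siRNA2 replicate 2 (adjusted p = 0.0575).

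*Lss*, lanosterol synthase, had the smallest adjusted p among the members. It stood at 105%, 94.4%, 99.7%, and 101% on the control arrays, at 63.0%, 58.8%, 61.8%, and 61.9% with siRNA1, and at 74.6%, 68.1%, and 70.8% with siRNA2. The 3 groups did not overlap, and the log2 differences were -0.70 ± 0.07 with siRNA1 (adjusted p = 3.96e-05) and -0.49 ± 0.08 with siRNA2 (adjusted p = 0.00106). Its second probe gave -0.62 and -0.46, both called. The difference between the siRNAs did not pass without a block (-0.21 ± 0.08, adjusted p = 0.0647).

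*Cyp51*, lanosterol demethylase, stood at 102%, 97.9%, 100%, and 99.5% on the control arrays, at 82.7%, 65.9%, 83.1%, and 72.1% with siRNA1, and at 76.6%, 60.6%, and 57.7% with siRNA2. Both knockdown groups lay below control and overlapped each other, with log2 differences of -0.40 ± 0.11 (adjusted p = 0.0176) and -0.63 ± 0.12 (adjusted p = 0.00326). All 3 *Cyp51* probes passed in both comparisons. *Tm7sf2*, a sterol reductase that acts after *Cyp51*, stood at 104%, 91.8%, 101%, and 104% on the control arrays, at 52.7%, 48.1%, 46.1%, and 55.8% with siRNA1, and at 62.0%, 63.4%, and 77.2% with siRNA2. The 3 groups did not overlap, with log2 differences from control of -0.98 ± 0.10 (adjusted p = 3.98e-05) and -0.57 ± 0.11 (adjusted p = 0.00322). The difference between the siRNAs (-0.41 ± 0.11, adjusted p = 0.0158) was lost without siRNA2 replicate 3 (-0.31, adjusted p = 0.0718).

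*Msmo1* and *Ebp*, a sterol methyl oxidase and a sterol isomerase, were lower with both siRNAs. *Msmo1* stood at 86.6%, 108%, 105%, and 101% on the control arrays, at 74.4%, 79.9%, 77.5%, and 85.1% with siRNA1, and at 72.3%, 70.8%, and 73.5% with siRNA2. Its log2 differences were -0.34 ± 0.09 (adjusted p = 0.014) and -0.47 ± 0.09 (adjusted p = 0.00493), with no knockdown array above the lowest control array. *Ebp* stood at 90.6%, 105%, 95.3%, and 110% on the control arrays, at 62.2%, 76.3%, 63.1%, and 82.7% with siRNA1, and at 64.3%, 70.1%, and 82.6% with siRNA2. The groups again did not overlap control (-0.50 ± 0.12, adjusted p = 0.0101, and -0.48 ± 0.13, adjusted p = 0.0269). The *Ebp* call with siRNA2 was lost without control replicate 2 or 4 or siRNA2 replicate 1 or 2 (adjusted p between 0.0627 and 0.0988).

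Of the remaining late enzymes, *Nsdhl*, a sterol dehydrogenase, was at 79.9% ± 6.1 with siRNA1 and 78.9% ± 11.5 with siRNA2 (SD, n = 4 and 3) and did not pass (limma, adjusted p = 0.0667 and 0.0883). Of its 3 probes, 1 passed with siRNA2 (-0.36, adjusted p = 0.0435). *Dhcr7*, which makes cholesterol from 7-dehydrocholesterol, was at 82.2% ± 9.9 and 81.2% ± 11.7 (limma, adjusted p = 0.0959 and 0.125), and with the slide as a block it was lower in both comparisons (-0.29, adjusted p = 0.00806, and -0.34, adjusted p = 0.00702). Its second probe passed with siRNA2 (-0.38 ± 0.10, adjusted p = 0.0178). *Sc5d*, a sterol desaturase, had log2 differences of -0.10 ± 0.07 and -0.04 ± 0.08 (adjusted p = 0.345 and 0.799).

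**Figure D3:**
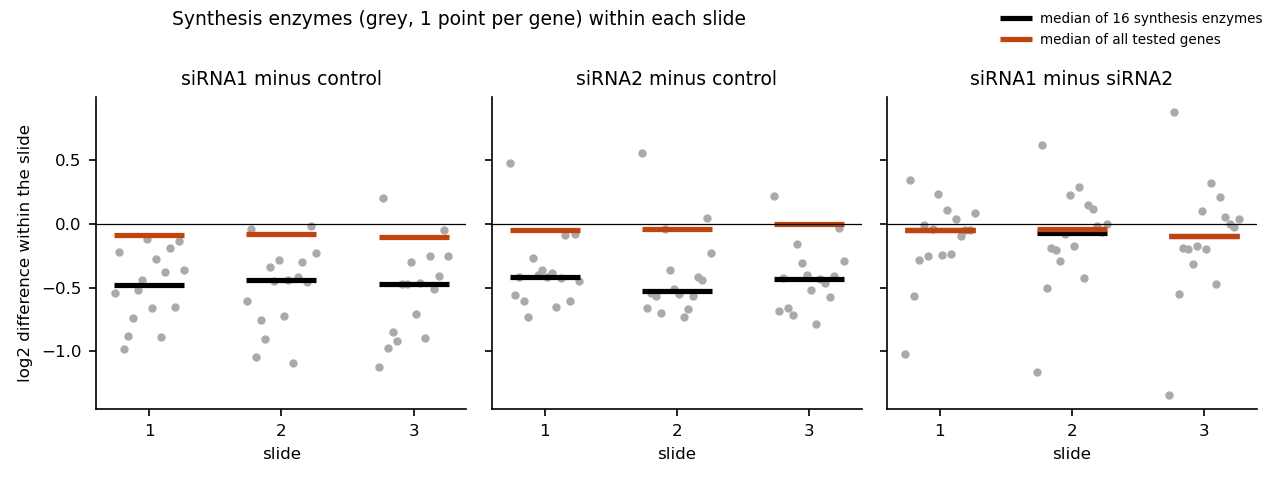
Grey points are the log2 differences (vertical axis) of the 16 synthesis enzymes within each of the 3 slides (horizontal axis), for siRNA1 minus control, siRNA2 minus control, and siRNA1 minus siRNA2, with the median of the enzymes in black and of all tested genes in orange. In both comparisons with control the black bar lies between -0.41 and -0.53 on every slide, below the orange bar, while between the siRNAs the bars lie close together.

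Deviations from the group means, over all tested probes, had a median correlation of 0.30 in 13 pairs of arrays that share a slide and of -0.12 in 27 pairs that do not, so the enzymes were also compared within each slide, where a group has 1 or 2 arrays. For siRNA1 minus control, 16, 16, and 15 of the 16 enzymes were lower on slides 1, 2, and 3, with medians of -0.48, -0.44, and -0.48 on the log2 scale. For siRNA2 minus control, 15, 14, and 15 were lower, with medians of -0.41, -0.53, and -0.43. Of all tested genes, 60.2%, 59.8%, and 61.1% were lower on these slides for siRNA1 minus control, and 55.7%, 55.9%, and 50.3% for siRNA2 minus control. Over all tested genes the medians within slides lay between -0.10 and -0.08 for siRNA1 and between -0.04 and -0.00 for siRNA2.

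None of the 5 genes of uptake and release passed by limma in either comparison with control. At an unadjusted p of 0.05, 1 was higher with siRNA1 and 0 with siRNA2, and that unmoderated test, adjusted, gave 0 in each. *Npc1*, which moves cholesterol out of lysosomes, stood at 105%, 86.4%, 122%, and 90.5% on the control arrays, at 153%, 116%, 167%, and 121% with siRNA1, and at 103%, 85.3%, and 140% with siRNA2, with overlap between all groups (0.46 ± 0.18 with siRNA1, adjusted p = 0.0793). Its lysosomal partner *Npc2* differed from control by -0.03 and 0.11. *Lrp1*, a lipoprotein receptor, differed by -0.33 ± 0.21 and 0.04 ± 0.23, and passed with siRNA1 once the slide was a block (-0.40, adjusted p = 0.0174). *Lipa*, the lysosomal ester hydrolase, differed by 0.12 ± 0.15 and -0.30 ± 0.16, and passed with siRNA2 under the same block (-0.35, adjusted p = 0.0217). *Lipe*, hormone-sensitive lipase, differed by 0.21 ± 0.17 and 0.19 ± 0.18, and neither passed.

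Among the sterol sensors, *Srebf1*, which encodes SREBP1, was the single gene whose brightest probe passed. It stood at 85.7%, 93.9%, 112%, and 111% on the control arrays, at 51.2%, 74.3%, 68.8%, and 81.4% with siRNA1, and at 71.7%, 80.8%, and 110% with siRNA2. The siRNA1 arrays lay below all control arrays, and the siRNA2 arrays were spread across the control range and below it. The log2 difference was -0.56 ± 0.17 with siRNA1 (adjusted p = 0.0329) and -0.21 ± 0.19 with siRNA2 (adjusted p = 0.506). The call was lost when control replicate 2, 3, or 4 or siRNA1 replicate 1 or 3 was left out (adjusted p between 0.0511 and 0.0859), and the gene passed with the slide as a block (-0.64, adjusted p = 0.00108). *Srebf2*, which encodes the SREBP that chiefly drives cholesterol synthesis, differed by -0.07 ± 0.14 and 0.14 ± 0.15 (adjusted p = 0.747 and 0.623), and *Scap* by -0.04 ± 0.16 and 0.14 ± 0.17 (adjusted p = 0.886 and 0.65).

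*Insig1*, itself a known target of SREBPs, gave different calls by its probes. The brightest one did not pass (-0.34 ± 0.19 with siRNA1 and -0.28 ± 0.20 with siRNA2, adjusted p = 0.212 and 0.396). The second one stood at 113%, 103%, 88.2%, and 97.4% on the control arrays, at 79.7%, 75.9%, 65.5%, and 69.2% with siRNA1, and at 72.9%, 83.0%, and 85.3% with siRNA2. By this probe both knockdown groups lay below control, and the difference with siRNA1 passed (-0.47 ± 0.10, adjusted p = 0.00572) while that with siRNA2 did not (-0.32 ± 0.11, adjusted p = 0.068). *Insig2* differed by 0.18 ± 0.07 and -0.02 ± 0.08 and passed with siRNA1 under the slide block (0.19, adjusted p = 0.04).

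**Figure D4:**
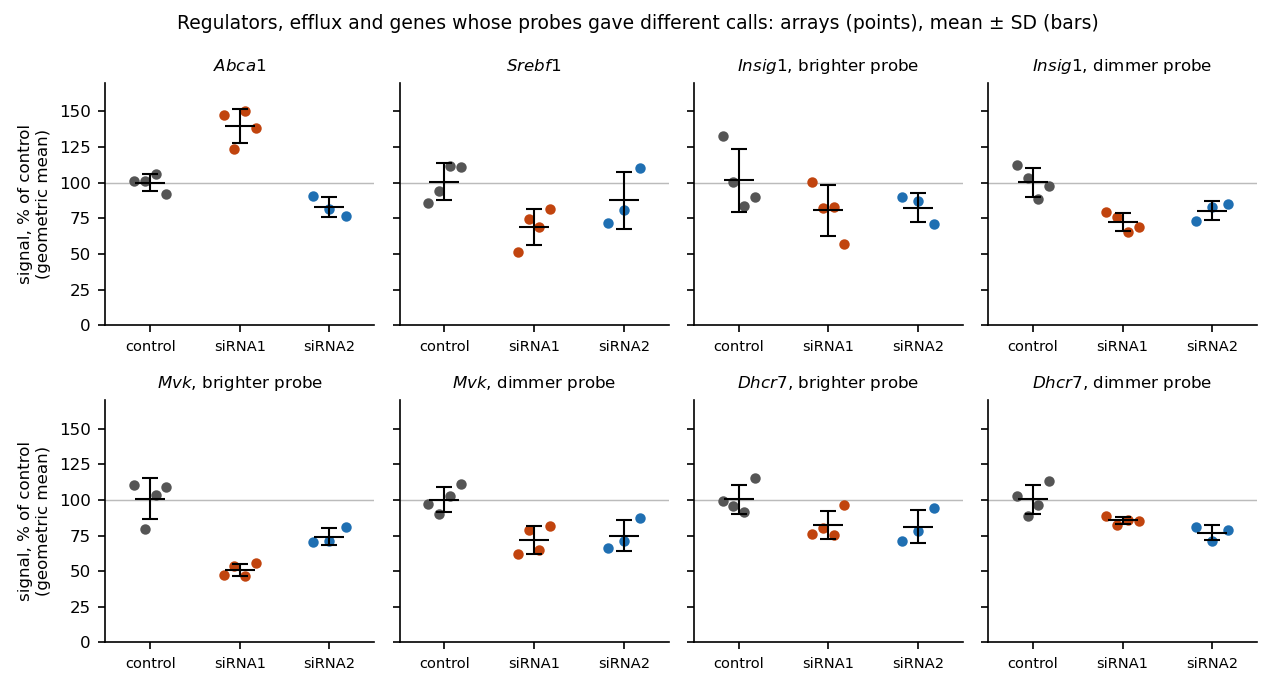
Signal as a percent of the control geometric mean (vertical axis) on the 4 control, 4 siRNA1, and 3 siRNA2 arrays, with the mean and SD, for *Abca1* and *Srebf1* and for both probes of *Insig1*, *Mvk*, and *Dhcr7*. *Abca1* is above control with siRNA1 and below it with siRNA2, and the siRNA1 arrays of *Mvk* are lower by its brighter probe than by its dimmer one.

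*Abca1*, which exports cholesterol to apolipoprotein A-I, was the single member that rose against control in the fit without a block. It stood at 101%, 101%, 106%, and 91.9% on the control arrays, at 147%, 124%, 150%, and 138% with siRNA1, and at 90.4%, 81.6%, and 76.6% with siRNA2. All siRNA1 arrays lay above and all siRNA2 arrays below the control arrays. The log2 difference was 0.48 ± 0.09 with siRNA1 (adjusted p = 0.00264) and -0.27 ± 0.10 with siRNA2 (adjusted p = 0.078). Between the siRNAs it was higher with siRNA1 by 0.76 ± 0.10 (adjusted p = 0.000268), and by 0.70, 0.74, and 0.85 within the slides.

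The LXR genes did not pass against control. *Nr1h2*, encoding LXR beta, differed by 0.01 ± 0.13 and -0.01 ± 0.14, and *Nr1h3*, encoding LXR alpha, by 0.01 ± 0.12 and -0.30 ± 0.13 (adjusted p = 0.949 and 0.161), the latter passing with the slide as a block (-0.34, adjusted p = 0.0232). The oxysterol-binding genes *Osbp* and *Osbpl2* differed by 0.24 ± 0.13 and 0.03 ± 0.07 with siRNA1 and by -0.03 ± 0.14 and 0.07 ± 0.08 with siRNA2, with 0 calls by limma at an adjusted or unadjusted p of 0.05 and 0 by the unmoderated test.

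Compared directly, the siRNAs differed for 5 of the 31 member genes. *Hmgcs1* and *Abca1* were higher with siRNA1 and *Acat2*, *Mvk*, and *Tm7sf2* were lower, beside 11.9% higher and 14.4% lower among all genes. The arrays of the siRNAs did not overlap for 10 of the 31 genes, beside 35.1% of all genes. With the slide as a block the counts were 5 higher and 7 lower, with *Lipa*, *Insig2*, and *Nr1h3* added to the higher genes (0.42, 0.20, and 0.32) and *Fdps*, *Lss*, *Lrp1*, and *Srebf1* to the lower ones (-0.28, -0.20, -0.37, and -0.35). The shares of all genes given here are from the fit without a block, and those under the block were not counted. The 16 synthesis enzymes had a median difference between the siRNAs of -0.07 on the log2 scale, beside -0.07 over all genes.

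Other genes of sterol handling, from a list of 33 of which 29 were tested, moved in both directions. With siRNA1, 7 were lower and 1 higher, and with siRNA2, 6 were lower and 2 higher, with medians of -0.00 and -0.15. In all, 27.6% of the list was called in each comparison, beside 29.3% and 20.2% of all genes. *Hsd17b7*, another enzyme of late cholesterol synthesis, was lower with both siRNAs (-0.91 ± 0.16, adjusted p = 0.0016, and -0.57 ± 0.17, adjusted p = 0.0395), while the scaffold *Erg28* was lower with siRNA1 (-0.32). The *Hsd17b7* call with siRNA2 was lost without control replicate 2, 3, or 4, siRNA1 replicate 2 or 3, or siRNA2 replicate 1 or 3 (adjusted p between 0.0539 and 0.142). The second *Hsd17b7* probe gave -0.90 and -0.63 and passed in both comparisons with control (limma, adjusted p = 0.000727 and 0.0132).

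*Lrp8*, a lipoprotein receptor of the LDL receptor family, rose with both siRNAs, by 1.54 ± 0.11 (adjusted p = 6.56e-06) and 0.62 ± 0.12 (adjusted p = 0.00477). *Soat2*, which esterifies cholesterol, fell by 1.58 on the log2 scale with siRNA2 (adjusted p = 4.67e-05) and differed by 0.15 ± 0.14 with siRNA1 (adjusted p = 0.454), and the siRNAs differed from each other by 1.73 ± 0.15 (adjusted p = 1.75e-05). *Abcg4*, a sterol exporter, was lower with both (-0.48 and -0.75, adjusted p = 0.0128 and 0.0022). The HDL receptor *Scarb1*, the sterol carrier *Stard4*, and *Osbpl5* were lower with siRNA1 (-0.58, -0.60, and -0.42). The *Scarb1* call was lost without control replicate 3 or 4 or siRNA1 replicate 3 (adjusted p between 0.0520 and 0.0561), the *Stard4* call without control replicate 2, 3, or 4, siRNA1 replicate 1, 3, or 4, or siRNA2 replicate 3 (0.0563 to 0.1205), and the *Osbpl5* call without control replicate 1, 2, or 3, siRNA1 replicate 1, 3, or 4, or any siRNA2 array (0.0506 to 0.119). The oxysterol-forming enzyme *Cyp27a1*, the LXR partner *Rxra*, and *Osbpl8* were lower with siRNA2 (-0.73, -0.86, and -0.71), and *Erlin2*, which takes part in sterol-regulated protein degradation, was higher (0.47, adjusted p = 0.0155). Leaving out siRNA2 replicate 1 ended the *Erlin2* call (adjusted p = 0.0633), and leaving out siRNA2 replicate 2 or 3 ended that of *Osbpl8* (adjusted p = 0.0675 and 0.0597).

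Genes of fatty acid synthesis and desaturation, many of them SREBP1 targets, were examined beside these. Of 13 tested, 4 were lower with siRNA1 and 6 with siRNA2, beside 18.7% and 12.2% of all genes, and 0 were higher by limma in either (1 in each at an unadjusted p of 0.05, and 1 and 0 by the adjusted unmoderated test). *Acss2*, which makes acetyl-CoA from acetate, was lower with both (-0.65 ± 0.10, adjusted p = 0.000926, and -0.77 ± 0.11, adjusted p = 0.000697), as was the desaturase *Fads2* (-0.72 ± 0.07, adjusted p = 4.22e-05, and -0.30 ± 0.08, adjusted p = 0.0196). The elongase *Elovl6* and the desaturase *Fads1* were lower with siRNA1 (-0.43 and -0.37), and the acetyl-CoA carboxylase *Acaca*, the elongase *Elovl5*, the malic enzyme *Me1*, and the phosphatidate phosphatase *Lpin1* were lower with siRNA2 (-0.45, -0.52, -0.40, and -0.99). With siRNA2, the call on *Fads2* was lost without siRNA2 replicate 1 or 2 (adjusted p = 0.0557 and 0.0883), that on *Acaca* without control replicate 3 or siRNA2 replicate 2 or 3 (0.0572 to 0.0931), and that on *Me1* without control replicate 1 or 4 or siRNA2 replicate 2 or 3 (0.0509 to 0.1014). The medians of the list were -0.16 and -0.30. Compared directly, 5 of the 13 were higher and 2 lower with siRNA1 than with siRNA2 by limma, beside 11.9% and 14.4% of all genes. Several of these calls were lost when a single array was left out.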

How the data were processed

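RNA of 11 samples of 1 mouse Leydig tumor cell line was hybridised in 1 color. The deposited files hold the authors' scanner output, signal intensity per spot from Agilent Feature Extraction 9.5, already background-corrected per the file headers and not scaled between arrays. A deposited list of probes past the authors' test and fold limits, with group averages, was not used.

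After log2 conversion, each array had the 75th percentile of its non-control spots subtracted, outlier-marked spots were dropped, and spots of a probe were averaged. A probe was tested where all arrays of some group held it well above background (24248 probes). limma 3.58.1 (R 4.3.3) fitted all 11 arrays in 3 groups, and p-values were adjusted (Benjamini-Hochberg) over all tested probes and called at 0.05. Errors beside log2 differences are SEs of this fit, and percents refer to the geometric mean of control. Each gene was represented by its brightest probe. Members called in a comparison are given on every array, and genes outside the list were named only from the other pathway lists where called, and 1 of these is not reported here. The number of arrays limits the precision. Members and lists were chosen with earlier results of these data known. The fit was tested on simulated data. Alternatives covered background correction, scaling, filters, outlier spots, slide and replicate blocks, separate fits, the methods' t-test, eBayes settings, the mean over probes, and leaving out each array.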

Additional observations from a re-analysis of the deposited data

Results flagged for a closer look

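The siRNAs differed from each other in a direct test for 5 of 31 member genes (16.1%), beside 26.3% of all genes. On the log2 scale, siRNA1 minus siRNA2, the differences were -1.21 for *Acat2*, 0.63 for *Hmgcs1*, -0.55 for *Mvk*, -0.41 for *Tm7sf2*, and 0.76 for *Abca1* (limma, adjusted p = 0.00029, 0.00265, 0.00887, 0.0158, and 0.000268). The difference in *Mvk* was -0.06 by the second probe of the gene.

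Single arrays far from the rest of their group were sought in 64 groups of 4 arrays, the control and siRNA1 groups of the 31 tested members and *Mamld1*, where chance gives about 1 in 20. It was found in 1 of them, for *Mamld1* on siRNA1 replicate 2, which stood at 77.0% of the control mean while the other siRNA1 arrays stood at 46.6%, 48.1%, and 44.1%.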

How the results depend on the processing

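The 29 calls on member genes kept their direction under each of 25 alternatives and stayed past the threshold in 658 cases, with 67 lost. With normexp background correction on the median signal 26 of the 29 calls were lost, and the median of all tested probes shifted to 0.22, 0.17, and 0.11 in siRNA1 against control, siRNA2 against control, and siRNA1 against siRNA2. Lower and higher member counts became 3 and 0, 0 and 0, and 0 and 0 in that order, while the medians of the synthesis enzymes became -0.80 and -0.66, and the cause was not tested. Under it *Abcg4* and *Osbpl5* with siRNA1 turned to 0.17 and 0.67, and *Mamld1* to 0.65 and 0.44. In an alternative chosen after seeing the data, normexp with local backgrounds limited to a high percentile of their array, all 29 member calls held, with 2 members higher with siRNA1. Quantile normalization gave a synthesis median of -0.33 with siRNA1 and 2 members higher. Slide as a block gave 2 and 1 members higher against control, and 5 higher and 7 lower between the siRNAs. The share of all genes called was not counted for the alternatives. Deviations had a median correlation of 0.30 (-0.18 to 0.53) in 10 same-numbered pairs of arrays and of -0.10 in 30 others. Some same-numbered pairs also share a slide, so pairing by number and by slide cannot be fully told apart. A replicate block gave 2 members higher with siRNA1, and 4 higher and 6 lower between the siRNAs, with 1 of the 29 calls lost. The t-test with adjustment gave 2 higher with siRNA1 and 7 lower with siRNA2, and without adjustment 3 and 1 higher against control and 6 higher and 5 lower between the siRNAs. With trend and robust eBayes 5 were lower between the siRNAs. Requiring a fold of 2 left 0 against control in either direction, and 0 higher and 1 lower between the siRNAs. Leaving out 1 array at a time gave 1 to 2 higher with siRNA1, 6 to 11 lower with siRNA2, and synthesis medians of -0.50 to -0.42 with siRNA1. Array number limits what small differences can show.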
